A study of Mus musculus with 17 samples.

Results

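The genes described here are 10 genes of the killing programme of natural killer (NK) cells and cytotoxic T cells, measured in RNA sequencing of mouse B cells: Klrd1, Ncr1 and Cd7 at the cell surface, Nkg7, Gzma, Gzmb, Prf1 and Cst7 in cytotoxic granules, and the chemokines Ccl5 and Xcl1. They are 10 of the 18554 gene symbols in the deposited expression table, and all 10 are among the 9898 that reached 1 TPM (a level scaled to a fixed library total and already divided by transcript length) in at least 2 libraries. They were picked by name from earlier results on the same libraries, in which they differed between groups, so their levels and differences are given as a description and carry no test.

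The study combines a mutation of Sf3b1 (a splicing factor) with deletion of Atm (a DNA damage kinase), restricted to B cells per the series title, as a mouse model of chronic lymphocytic leukaemia (CLL). Poly(A) RNA gave 17 libraries, from C57BL/6 mice that the sample titles call old. DM-CLL (n = 2, numbered 4 and 5) is the double mutant with leukaemia, DM (n = 3, numbered 1, 3 and 6) is the double mutant without it, Atm MT (n = 6) has the Atm deletion alone, Sf3b1 MT (n = 3) has the Sf3b1 mutation alone, and WT (n = 3) has neither. The labels do not say whether replicates came from separate mice, so any p-value measures only the spread between these libraries, and the driver of the recombination, the sorting of the B cells and the exact ages are not given in the sources used here.

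NK cells and cytotoxic T cells kill by releasing granules towards a bound target cell. Perforin opens the target's membrane, granzymes enter and cleave proteins inside, and cystatins and cathepsins in the granules control the enzymes. Receptors of the killer-cell lectin and natural cytotoxicity families decide whether a target is attacked, and chemokines such as Ccl5 and Xcl1 draw in other immune cells. B cells are known for antigen receptors and antibody, not for this programme, so the same libraries' markers of T cells, innate lymphoid cells and myeloid cells are given beside the cytotoxic genes.

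All 10 genes are protein-coding in the GENCODE M21 annotation of mouse genome build GRCm38, whose positions are given where each gene is described. Upstream sequences of 4 of them are shown because they stand for the 3 roles (receptor, granule, chemokine). Each is the 250 bases before a RefSeq transcription start (build GRCm38.p6), written 5′ to 3′ on the gene's own strand. Capitals mark the letters GTGTGA, a core bound by T-box factors such as T-bet and eomesodermin, which read TCACAC where they lie on the other strand. Capitals also mark TGTGGT, a core bound by Runx factors, which reads ACCACA on the other strand. A second Runx form, TGCGGT, was searched on both strands too, and the motifs share no bases in these windows.
Ncr1, chr7:4337474-4337723, plus strand, the second of 2 starts in the table: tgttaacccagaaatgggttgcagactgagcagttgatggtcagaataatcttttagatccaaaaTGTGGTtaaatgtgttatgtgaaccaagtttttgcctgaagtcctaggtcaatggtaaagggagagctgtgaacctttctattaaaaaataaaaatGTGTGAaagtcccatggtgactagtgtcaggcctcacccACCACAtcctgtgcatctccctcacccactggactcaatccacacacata
Gzmb, chr14:56262335-56262584, minus strand: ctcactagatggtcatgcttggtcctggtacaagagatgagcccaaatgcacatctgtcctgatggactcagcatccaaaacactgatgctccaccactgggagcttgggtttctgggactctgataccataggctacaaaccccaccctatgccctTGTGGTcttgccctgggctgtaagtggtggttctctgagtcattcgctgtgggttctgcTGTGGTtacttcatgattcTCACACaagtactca
Gzma, chr13:113100982-113101231, minus strand: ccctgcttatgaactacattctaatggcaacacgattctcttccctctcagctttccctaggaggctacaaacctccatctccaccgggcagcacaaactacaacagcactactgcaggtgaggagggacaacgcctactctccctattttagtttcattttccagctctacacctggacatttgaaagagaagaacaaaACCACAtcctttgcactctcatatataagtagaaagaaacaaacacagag
Xcl1, chr1:164935523-164935772, minus strand: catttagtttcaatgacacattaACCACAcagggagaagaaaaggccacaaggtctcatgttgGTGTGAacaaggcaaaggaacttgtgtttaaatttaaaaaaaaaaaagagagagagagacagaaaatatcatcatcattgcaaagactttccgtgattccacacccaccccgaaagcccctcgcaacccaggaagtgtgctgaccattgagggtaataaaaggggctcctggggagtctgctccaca
Counting back from −1 at the base before the start, the T-box letters begin at −89 upstream of Ncr1, −15 upstream of Gzmb and −187 upstream of Xcl1, and the Gzma window holds none. The RefSeq table held upstream windows for 7 of the 10 genes (Ncr1, Gzma, Gzmb, Prf1, Cst7, Nkg7 and Xcl1). The T-box letters stood in 4 of the 7 (Ncr1, Gzmb, Nkg7 and Xcl1), against 12.3% of all 32851 windows of that length in the table. The TGTGGT letters on either strand stood in 7 of the 7, against 14.0% of all windows. The TGCGGT form stood in none of the 7, against 5.10% of all windows. These matches describe letters in a window and not binding.

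Several libraries stood apart in their cell-type markers. B-cell markers were high in every library, as the label B cell asks: the 9 genes of the list summed to 2205 to 5158 TPM, and Cd79a, a chain of the B-cell receptor, had 866 to 1988 TPM. Within this range the sum was lower in DM (2205 to 3171 TPM) than in WT (3924 to 4994 TPM). In Atm MT replicates 1 to 4 the 9 macrophage genes in the table summed to 835 to 1535 TPM, against 63.0 to 249.97 TPM in the other 13 libraries, and C1qa, a complement gene of macrophages, had 120 to 241 TPM there, against 8.01 to 35.9 TPM. DM-CLL replicate 4 had high T-cell and red-cell genes: Cd3e, a T-cell receptor chain, had 11.9 TPM there and 0.39 TPM in DM-CLL replicate 5, and Hba-a2, a haemoglobin chain, had 27113 TPM there and 25.8 TPM in replicate 5. Medians of the 10 genes that rest on these libraries are given with and without them, and most calls too. No correlation is given without DM-CLL replicate 4. Sf3b1 itself had 138 to 140 TPM in DM-CLL, 39.8 to 73.9 in DM, 112 to 191 in Atm MT, 50.2 to 88.8 in Sf3b1 MT and 96.1 to 113 in WT, and Atm had 7.78 to 9.20, 2.54 to 4.08, 4.24 to 15.6, 3.11 to 6.88 and 6.48 to 8.87 TPM in the same groups. Total Atm does not check the deletion, because the deleted exons are not given in the sources used here. Xist, looked at after the values were seen because the sex of the mice is not labelled, was at 29.1 to 52.8 TPM in Atm MT replicates 1, 2 and 4 and at 0.04 TPM in replicate 3, so the 4 libraries that stand apart are mixed in it. It was at 0.02 and 0.06 TPM in Atm MT replicates 5 and 6, and at 0.02 to 0.03 TPM in all 3 Sf3b1 MT libraries. WT had 38.6, 47.05 and 0.08 TPM, DM 0.02, 27.5 and 0.01 TPM, and DM-CLL 9.54 and 116 TPM. The groups, Sf3b1 MT and WT among them, are thus unbalanced in Xist, and the part of sex in their differences was not tested.

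The cytotoxic genes were low to moderate in most libraries and close to absent in 4. Their summed level was 210.02 and 61.9 TPM in DM-CLL replicates 4 and 5, 122 to 196 TPM in DM, 101 and 140 TPM in Atm MT replicates 5 and 6, 97.8 to 112 TPM in Sf3b1 MT and 112 to 122 TPM in WT. In Atm MT replicates 1 to 4 it was 8.08, 9.28, 6.17 and 19.9 TPM, and 2, 3, 1 and 0 of the 10 genes were listed at 0. Ccl5 alone made up 17.7% to 66.1% of the sum, so the sum follows Ccl5 more than any other gene. In 6 of the 10 (Klrd1, Ncr1, Cd7, Nkg7, Ccl5 and Xcl1) each of Atm MT replicates 1 to 4 lay below each of the other 13 libraries, which was so for 1.26% of all 9898 genes (125). These 4 libraries were set apart from their values and are not a group of the study. In bulk RNA, fewer cells of a type and less RNA per cell cannot be told apart.

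**Figure D1:**
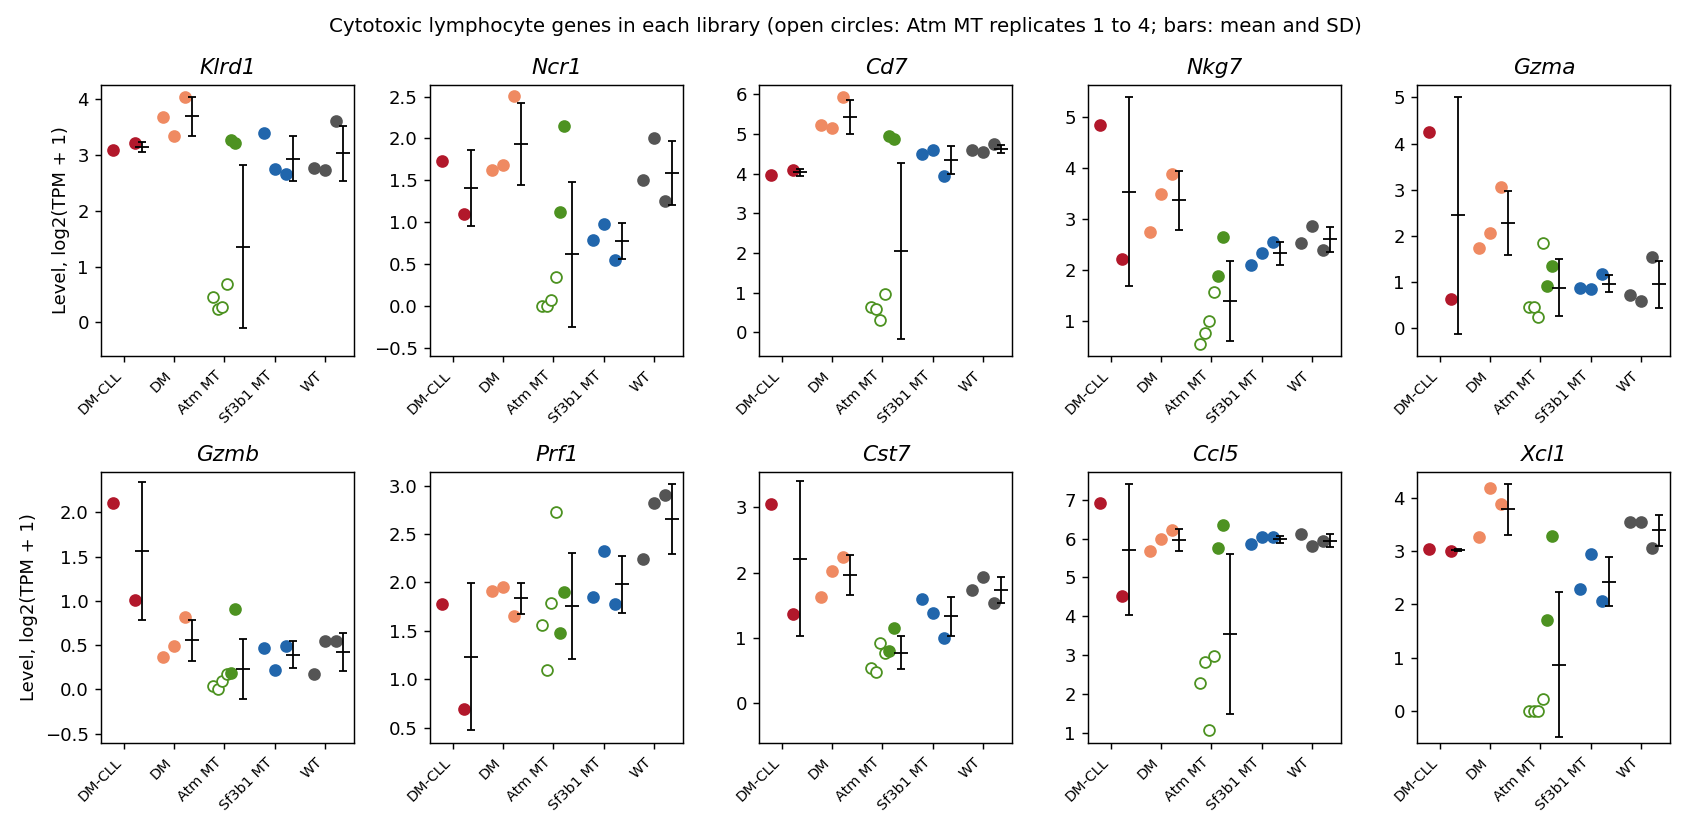
Level of each of the 10 genes, as log2(TPM + 1), in every library of the 5 groups; points are libraries, open circles are Atm MT replicates 1 to 4, and bars give the group mean and SD. In Klrd1, Cd7, Ccl5 and Xcl1 the open circles lie far below all other points, and in Nkg7 and Gzma DM-CLL replicate 4 is the highest point of all.

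The receptors come first. Klrd1 (chromosome 6, 129591782 to 129598775, plus strand) encodes CD94, the chain that NKG2 receptors pair with on NK cells. It had 7.50 and 8.28 TPM in DM-CLL, 11.8, 9.22 and 15.6 TPM in DM, 0.38, 0.18, 0.21, 0.62, 8.62 and 8.27 TPM in Atm MT replicates 1 to 6, 9.57, 5.76 and 5.30 TPM in Sf3b1 MT, and 5.81, 5.65 and 11.2 TPM in WT. Outside Atm MT replicates 1 to 4 the libraries spanned 5.30 to 15.6 TPM. Both DM-CLL libraries and all Atm MT libraries lay below all 3 DM libraries, and DM overlapped with Sf3b1 MT and WT. Cd7 (chromosome 11, 121036747 to 121039418, minus strand), a surface glycoprotein of T and NK cells, had 14.6 and 16.1 TPM in DM-CLL, 36.5, 34.4 and 60.1 TPM in DM, 0.55, 0.49, 0.23, 0.94, 29.7 and 28.2 TPM in Atm MT, 21.4, 23.3 and 14.3 TPM in Sf3b1 MT, and 23.4, 22.2 and 25.7 TPM in WT. The 3 DM libraries were the highest of all 17, and both DM-CLL libraries were below every DM and every WT library. Ncr1 (chromosome 7, 4337724 to 4345164, plus strand) encodes NKp46, an activating receptor that marks NK cells and some innate lymphoid cells. It had 2.32 and 1.13 TPM in DM-CLL, 2.08, 2.22 and 4.66 TPM in DM, 0, 0, 0.05, 0.27, 1.18 and 3.44 TPM in Atm MT, 0.73, 0.96 and 0.46 TPM in Sf3b1 MT, and 1.83, 3.01 and 1.39 TPM in WT. Each Sf3b1 MT library lay below each WT and each DM library, while DM and WT overlapped.

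On the log2(TPM + 1) scale, Cd7 was 0.81 ± 1.06 higher in DM than in WT (difference ± SE of the fit) and 1.10 ± 1.06 higher in DM than in Sf3b1 MT. In DM-CLL against DM it differed by −1.41 ± 1.14. The SE of this gene comes from a spread shared by all groups, which includes the gap within Atm MT. Against WT, Atm MT differed by −2.58 ± 0.91 in Cd7 and −1.68 ± 0.63 in Klrd1, and by 0.28 and 0.20 once replicates 1 to 4 were left out. Ncr1 differed by −0.82 ± 0.47 in Sf3b1 MT against WT and by 1.17 ± 0.47 in DM against Sf3b1 MT. In order of mean TPM, Klrd1 ran DM, DM-CLL, WT, Sf3b1 MT, Atm MT, and DM-CLL and WT, and WT and Sf3b1 MT, were closer than their spread (the root of the mean of both groups' variances), while DM and DM-CLL, and Sf3b1 MT and Atm MT, were farther apart than theirs. Cd7 ran DM, WT, Sf3b1 MT, DM-CLL, Atm MT, with only DM-CLL and Atm MT closer than their spread. In Ncr1 (DM, WT, DM-CLL, Atm MT, Sf3b1 MT) all neighbours were closer than their spread.

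Among the granule genes, Nkg7 (chromosome 7, 43437073 to 43438249, plus strand), a membrane protein of cytotoxic granules, had 27.9 and 3.68 TPM in DM-CLL replicates 4 and 5, 5.70, 10.2 and 13.8 TPM in DM, 0.47, 0.69, 0.99, 1.98, 2.68 and 5.24 TPM in Atm MT, 3.29, 4.04 and 4.86 TPM in Sf3b1 MT, and 4.81, 6.33 and 4.29 TPM in WT. The 3 DM libraries exceeded every Sf3b1 MT and every Atm MT library and overlapped with WT through the highest WT library. Gzma (chromosome 13, 113093825 to 113100981, minus strand), a trypsin-like granzyme, had 18.1 and 0.54 TPM in DM-CLL, 2.32, 3.16 and 7.32 TPM in DM, 0.38, 0.37, 0.18, 2.61, 0.89 and 1.53 TPM in Atm MT, 0.83, 0.79 and 1.26 TPM in Sf3b1 MT, and 0.65, 0.50 and 1.90 TPM in WT. It was higher in each DM library than in each WT and Sf3b1 MT library, and DM-CLL replicate 4 was the highest library of the series while replicate 5 lay below every DM library. Gzmb (chromosome 14, 56258838 to 56262260, minus strand), the granzyme that cleaves after aspartate, had 3.31 and 1.01 TPM in DM-CLL, 0.29, 0.40 and 0.76 TPM in DM, 0.03, 0, 0.07, 0.13, 0.14 and 0.88 TPM in Atm MT, 0.38, 0.16 and 0.41 TPM in Sf3b1 MT, and 0.13, 0.46 and 0.46 TPM in WT. Outside DM-CLL it stayed under 1 TPM, and both DM-CLL libraries were above all others. It therefore passed the filter of 1 TPM in at least 2 libraries only through DM-CLL, the group where it was high.

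Prf1 (chromosome 10, 61297833 to 61304680, plus strand) encodes perforin, the pore-forming protein. It had 2.42 and 0.62 TPM in DM-CLL, 2.75, 2.86 and 2.15 TPM in DM, 1.94, 1.14, 2.45, 5.61, 1.78 and 2.73 TPM in Atm MT, 2.60, 4.0 and 2.44 TPM in Sf3b1 MT, and 3.73, 6.09 and 6.47 TPM in WT. The WT mean was the highest of the 5, every DM and every DM-CLL library lay below every WT library, and Atm MT replicates 1 to 4 overlapped with the rest. Cst7 (chromosome 2, 150570415 to 150578944, plus strand), or cystatin F, which restrains the cathepsins that activate granzymes, had 7.29 and 1.59 TPM in DM-CLL, 2.08, 3.09 and 3.72 TPM in DM, 0.45, 0.39, 0.90, 0.70, 0.75 and 1.22 TPM in Atm MT, 2.03, 1.61 and 1.01 TPM in Sf3b1 MT, and 2.33, 2.81 and 1.89 TPM in WT. It was the only one of the 10 in which all 6 Atm MT libraries, replicates 5 and 6 included, lay below all 3 WT libraries.

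On the log2(TPM + 1) scale, Nkg7 differed by 0.77 ± 0.44 and Gzma by 1.33 ± 0.41 in DM against WT, and by 1.05 ± 0.44 and 1.32 ± 0.41 in DM against Sf3b1 MT. Prf1 differed by −0.82 ± 0.32 in DM against WT and by −1.42 ± 0.39 in DM-CLL against WT. Cst7 differed by −0.96 ± 0.19 in Atm MT against WT, and by −0.75 without replicates 1 to 4. Gzmb differed by 1.0 ± 0.31 in DM-CLL against DM and 1.13 ± 0.31 against WT. Its values are low, so the added 1 TPM compresses these differences, which were 1.82 and 2.22 with 0.1 TPM added. By mean TPM, Nkg7, Gzma, Gzmb and Cst7 all ran DM-CLL then DM, and in Nkg7, Gzma and Cst7 these 2 means were closer than their spread, which includes the gap between the DM-CLL libraries.

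Of the chemokines, Ccl5 (RANTES; chromosome 11, 83525778 to 83530518, minus strand), which draws T cells, NK cells and monocytes, had the highest TPM of the 10 in every library except Atm MT replicate 3. It had 119 and 21.9 TPM in DM-CLL, 50.1, 62.2 and 73.9 TPM in DM, 3.88, 6.02, 1.09, 6.82, 52.7 and 80.0 TPM in Atm MT, 57.1, 64.7 and 64.6 TPM in Sf3b1 MT, and 68.6, 54.7 and 60.04 TPM in WT. Outside the 4 low Atm MT libraries and DM-CLL it stayed between 50.1 and 80.0 TPM and the groups overlapped, and its mean differed by 0.01 ± 0.97 (log2) in DM against WT. Xcl1 (lymphotactin; chromosome 1, 164931644 to 164935527, minus strand), the ligand of Xcr1 on cross-presenting dendritic cells, had 7.23 and 7.03 TPM in DM-CLL, 8.64, 17.4 and 13.9 TPM in DM, 0, 0, 0, 0.17, 2.27 and 8.74 TPM in Atm MT, 3.89, 6.69 and 3.16 TPM in Sf3b1 MT, and 10.8, 10.8 and 7.35 TPM in WT. Each Sf3b1 MT library lay below each WT, each DM and each DM-CLL library, and each DM-CLL library lay below each WT and DM library. Its log2 difference was −0.96 ± 0.68 in Sf3b1 MT against WT and 1.36 ± 0.68 in DM against Sf3b1 MT. In Atm MT against WT it was −2.52 ± 0.59, and −0.90 without replicates 1 to 4.

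For the 10 genes as a whole, the median of their log2 differences is given beside the median over all 9898 tested genes, because the groups also differ in that. In DM against WT, 9 of the 10 differences were above 0 and their median was 0.37, with −0.25 over all genes. In DM against Sf3b1 MT, 8 of 10 were above 0 with a median of 0.90, and −0.11 over all genes. In Sf3b1 MT against WT, 8 of 10 were below 0 with a median of −0.28, and −0.11 over all genes. Scaling the libraries by median ratios brought the median over all genes to between −0.03 and 0.06 in the 7 comparisons and kept the sign of the 10-gene median in each of them. A replicate block, with numbers not known to pair the libraries, gave a median of −0.10 in DM against WT, 0.34 in DM against Sf3b1 MT and −0.85 in DM-CLL against WT. Median-ratio scaling turned the sign of Prf1 and Ccl5 in DM against Sf3b1 MT, and of Klrd1 and Gzmb in Sf3b1 MT against WT.

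The comparisons with Atm MT turn on its replicates 1 to 4. Against WT all 10 differences were below 0 with a median of −1.09 and −0.05 over all genes, and without those replicates 6 of 10 were above 0 with a median of 0.072. In DM against Atm MT all 10 were above 0 with a median of 1.69 and −0.21 over all genes, and 9 of 10 with a median of 0.49 without them. DM and Atm MT are compared with WT through the same WT libraries, so these values share their controls.

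In DM-CLL the 10 genes depended on the library. Against DM, 4 of 10 differences were above 0 and their median was −0.39, with 0.43 over all genes. The median was 0.44 without DM-CLL replicate 5 and −0.99 without replicate 4. Against WT, 5 of 10 were above 0 with a median of −0.03, and 0.19 over all genes. It was 0.55 without DM-CLL replicate 5, −0.38 without DM-CLL replicate 4 and 0.067 without WT replicate 3. After median-ratio scaling 1 of 10 was above 0 against DM, with Gzma, Cst7 and Nkg7 now below 0, and 4 of 10 against WT, with Klrd1 now below 0.

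**Figure D2:**
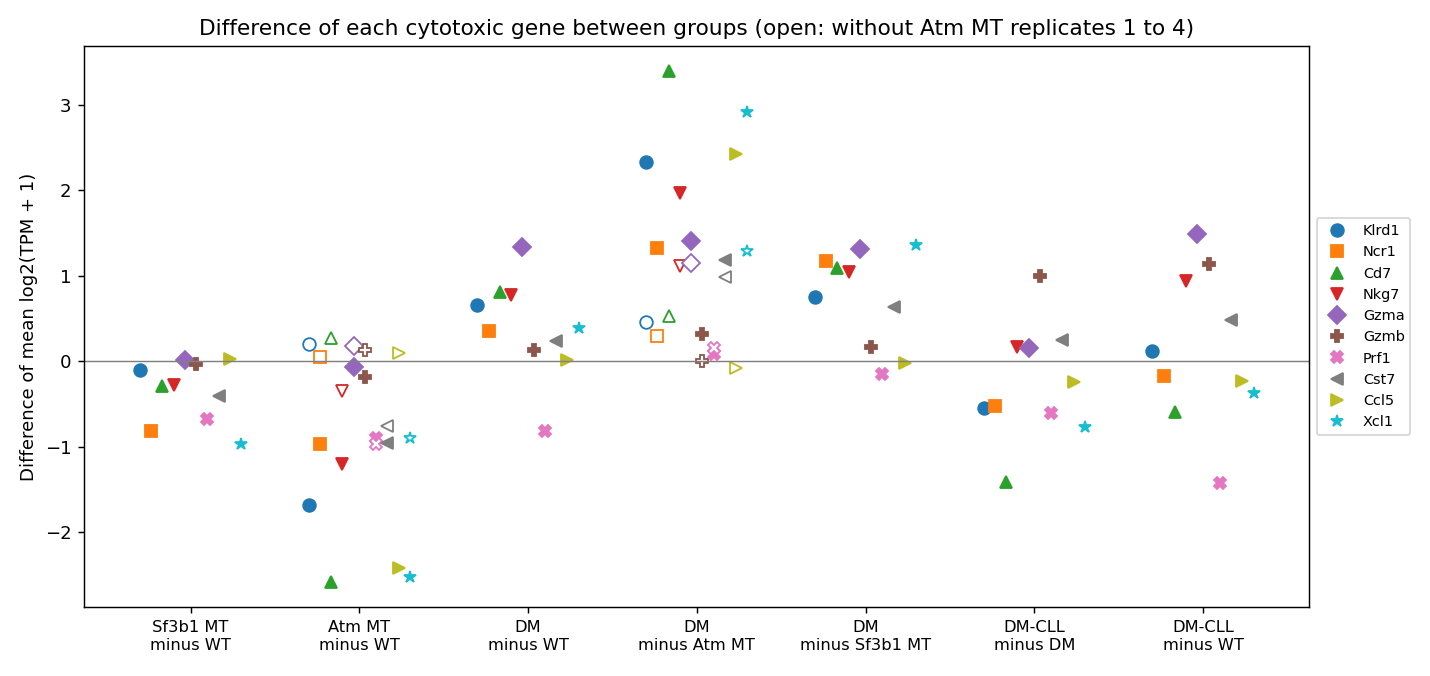
Difference of the group means of log2(TPM + 1) for each of the 10 genes in the 7 comparisons, the group named first minus the second; open symbols leave out Atm MT replicates 1 to 4. The filled symbols of Atm MT minus WT lie below 0, with Cd7 at −2.58, and the open one of Cd7 at 0.28.

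The number of the 10 genes whose groups did not overlap can be read against the same share of all genes. Every DM library was above every WT library in 2 of 10 (Cd7 and Gzma) and 2.06% of all genes, and below in 1 of 10 (Prf1) and 28.1% of all genes. Every DM library was above every Sf3b1 MT library in 6 of 10 and 3.88% of all genes, and above every Atm MT library in 4 of 10 and 2.21% of all genes. Sf3b1 MT lay wholly below WT in 2 of 10 (Ncr1 and Xcl1), near the 17.1% of all genes, and Atm MT wholly below WT in 1 of 10 (Cst7) and 3.48% of all genes. DM-CLL lay wholly below DM in 3 of 10 (Klrd1, Cd7 and Xcl1) and 6.05% of all genes, and above it in 1 of 10 (Gzmb) and 47.3% of all genes. Against WT, DM-CLL lay wholly below in 3 of 10 (Cd7, Prf1 and Xcl1) and 11.7% of all genes, and above in 1 of 10 (Gzmb) and 32.2% of all genes. The 10 genes were chosen from these contrasts, and Gzmb passed the filter only through DM-CLL, so nothing is read from these counts.

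A wider list of 67 further cytotoxic genes, of which 63 are in the table and 40 could be tested, covers the rest of the programme. It was drawn up with earlier results known. Tests on these genes are limma's moderated tests with Benjamini-Hochberg adjustment over all 9898 genes, and rose and fell are used for an adjusted p under 0.05. In Atm MT against WT, 0 of 40 rose and 3 of 40 fell, where 0.202% of all genes rose and 0.445% fell, and the median difference of the 40 was −0.35, with −0.05 over all genes. Il2rb, a chain of the interleukin-2 and interleukin-15 receptor, had 1.98, 2.74, 3.12, 7.54, 4.11 and 7.71 TPM in Atm MT and 15.4, 22.8 and 24.3 TPM in WT and fell by 2.07 ± 0.35 (adjusted p = 0.0124). Tbx21, which encodes the transcription factor T-bet, had 4.6, 3.44, 4.41, 14.1, 4.98 and 6.44 TPM in Atm MT and 22.4, 22.0 and 20.0 TPM in WT and fell by 1.74 ± 0.31 (adjusted p = 0.0148). Klrb1c, the NK1.1 receptor, had 0 to 0.38 TPM in Atm MT and 0.80 to 1.27 TPM in WT and fell by 0.86 ± 0.17 (adjusted p = 0.0289). In all 3 the groups did not overlap. The call of Il2rb was lost without WT replicate 2 (adjusted p = 0.0757) and without Atm MT replicates 1 to 4 (difference −1.68, adjusted p = 0.116). That of Tbx21 was lost without WT replicate 1 (0.0899) or 2 (0.0850), or with only the groups compared (0.0701). That of Klrb1c was lost without Atm MT replicate 1 (0.0638) or 3 (0.0536), WT replicate 1 (0.178) or 2 (0.129), or Atm MT replicates 1 to 4 (0.223), or with only the groups compared (0.0678). Over 24 alternatives the adjusted p ran from 0.00324 to 0.116 for Il2rb, from 0.00059 to 0.0899 for Tbx21 and from 0.0122 to 0.223 for Klrb1c. The number called was 5 without Atm MT replicate 4, 7 without replicate 6, 1 without WT replicate 1 and 0 without WT replicate 2.

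In DM against WT, 0 of 40 rose and 1 of 40, Tbx21, fell, where 0.152% of all genes rose and 2.08% fell. It had 2.64, 5.54 and 5.17 TPM in DM and fell by 2.09 ± 0.36 (adjusted p = 0.0141), which was lost without DM replicate 1 (0.0601) or WT replicate 1 (0.0613) and ran from 0.00236 to 0.0613 over 24 alternatives. The count was 0 without either of those libraries and 2 without WT replicate 3. In Sf3b1 MT it had 5.89, 7.74 and 4.58 TPM, and did not pass against WT. By limma 0 of 40 rose and 0 of 40 fell there, with 6 of 40 at an unadjusted p under 0.05, where 0% of all genes rose and 0.0707% fell. All 13 tested receptors lay below 0 there, with a median of −0.30 and −0.11 over all genes. The share of all genes below 0 was not computed. Without Atm MT replicate 4, 1 of 40 passed in Sf3b1 MT against WT. Of the same 13 receptors, 12 lay below 0 in Atm MT against WT (median −0.71, with −0.05 over all genes). In DM against WT 8 of 13 lay above 0 (median 0.07, with −0.25). In DM against Atm MT 13 of 13 lay above 0 (median 0.61, with −0.21). In DM against Sf3b1 MT, by limma 0 of 40 passed and 4 of 40 had an unadjusted p under 0.05, where 0.0404% of all genes rose and 0.0808% fell. DM and Atm MT are both set against the same WT libraries.

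In DM against Atm MT, 5 of 40 rose and 1 of 40 fell, where 1.54% of all genes rose and 4.52% fell. Those that rose were Cd160, a receptor of NK and T cells (1.52 ± 0.34, adjusted p = 0.0321), Ctsw, a cathepsin of cytotoxic granules (1.36 ± 0.33, adjusted p = 0.0349), the chemokines Ccl3 (1.23 ± 0.32, adjusted p = 0.0407) and Ccl4 (1.5 ± 0.36, adjusted p = 0.0348), and Nfil3, a transcription factor of NK-cell development (1.13 ± 0.25, adjusted p = 0.0318). Ctsc, the cathepsin that activates granzymes and is also active in myeloid cells, fell by 0.89 ± 0.20 (adjusted p = 0.0299). Cd160 had 1.77, 3.68 and 3.84 TPM in DM and 0, 0.07, 0, 0, 1.04 and 2.21 TPM in Atm MT, and Nfil3 had 9.38, 5.53 and 7.95 TPM in DM and 4.14, 2.22, 2.64, 4.20, 1.99 and 2.58 TPM in Atm MT. Cd160 overlapped with Atm MT through replicate 6, and Nfil3 did not overlap. None of the 6 passed without the filter on low values (adjusted p 0.0522 to 0.0734), with only the groups compared (0.0560 to 0.0871), without Atm MT replicates 1 to 4 (0.0559 to 0.212), without Atm MT replicate 4 alone (0.0556 to 0.0758), without DM replicate 1 (0.0621 to 0.164) or without DM replicate 3 (0.102 to 0.186). Cd160 was also lost without DM replicate 6 (0.0505), Ctsw without Atm MT replicate 2 (0.0509) or DM replicate 6 (0.0682), and Ccl3 without any one of Atm MT replicates 1, 2 and 3, Sf3b1 MT replicate 3, WT replicate 1 and WT replicate 2 (0.0520 to 0.0606). The count was 11 without Atm MT replicate 6. Ctsc did not pass after median-ratio scaling (0.0797). Over 24 alternatives the adjusted p ran from 0.0113 to 0.181 for Cd160, 0.0170 to 0.212 for Ctsw, 0.0205 to 0.175 for Ccl3, 0.0181 to 0.162 for Ccl4, 0.0216 to 0.102 for Nfil3 and 0.0144 to 0.186 for Ctsc.

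In DM-CLL against DM, 3 of 40 rose and 0 of 40 fell, where 29.2% of all genes rose and 1.97% fell. Their median was 0.06 and that of all genes 0.43. Tnfsf10 (TRAIL), a death ligand, had 12.1 and 19.6 TPM in DM-CLL and 1.82, 1.36 and 1.83 TPM in DM and rose by 2.63 ± 0.25 (adjusted p = 5.15e-06). Ctsc had 160 and 192 TPM in DM-CLL and 51.9, 43.0 and 74.2 TPM in DM and rose by 1.66 ± 0.25 (adjusted p = 0.000249). Tnf rose by 1.27 ± 0.44 (adjusted p = 0.0378), a call lost without DM-CLL replicate 4 (0.79, adjusted p = 0.335), DM replicate 1 (0.0988) or DM replicate 3 (0.109), after median-ratio scaling (0.186), on a common total (0.0988), with the replicate block (0.145), without the filter (0.0663) and with only the groups compared (0.0617), with a range of 0.0144 to 0.335 over 24 alternatives. Tnfsf10 and Ctsc passed in all 24. In DM-CLL against WT, 2 of 40 rose (Tnfsf10, 2.48 ± 0.25, adjusted p = 1.11e-05, and Ctsc, 1.01 ± 0.25, adjusted p = 0.0135) and 1 of 40 fell (Tbx21, by 2.74 ± 0.39, adjusted p = 0.000251), where 10.3% of all genes rose and 2.81% fell. Ctsc was lost there without DM-CLL replicate 5 (adjusted p = 0.0875) and with the replicate block (0.0745; range 0.00615 to 0.0875). Without that library the count was 8 against DM and 5 against WT, and without DM replicate 6 it was 5 against DM. The split of calls over all genes depends on the scaling: 93.7% of the calls in DM-CLL against DM were higher in DM-CLL as deposited and 53.8% after median-ratio scaling, and 78.6% and 56.8% in DM-CLL against WT. In DM the share of calls higher was 6.79% and 55.6% against WT, 25.4% and 71.2% against Atm MT, and 33.3% and 62.5% against Sf3b1 MT.

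In Atm MT replicates 1 to 4 the roles of the wider list differed. Its receptors summed to 4.56 to 14.8 TPM there and to 18.0 to 50.4 TPM in the other 13 libraries, without overlap. Its adapters, which myeloid cells also use, summed to 274 to 419 TPM there and 210 to 604 TPM elsewhere, and its release machinery to 45.6 to 75.5 TPM and 48.2 to 85.8 TPM, both with overlap. Tyrobp and Fcer1g, adapters shared by NK and myeloid cells, had 170 to 278 TPM and 52.5 to 93.8 TPM in those libraries, and 119 to 448 TPM and 30.1 to 91.2 TPM elsewhere, so both overlapped.

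Markers of other cells moved with the 10 genes in both places where these were extreme. Beside their low level in Atm MT replicates 1 to 4 stood the high macrophage genes given above, and low levels of other lists. In Atm MT against WT all 9 macrophage genes lay above 0 with a median of 2.22, and by limma 0 of 9 passed, with 9 of 9 at an unadjusted p under 0.05. Cd8a, a chain of the CD8 receptor of T cells and some dendritic cells, had 0 to 0.13 TPM there and 1.88 to 5.56 TPM elsewhere. All 5 platelet genes in the table summed to 1.35 to 4.19 TPM there and 9.23 to 39.6 TPM elsewhere. Of a list of 14 dendritic cell genes, added after the values were seen, the sum was 304 to 414 TPM there and 465 to 952 TPM elsewhere. Of the 14, 8 lay wholly below the other libraries, beside 1.26% of all 9898 tested genes. Among them were Xcr1 (0.17 to 0.35 TPM there, 1.19 to 3.06 TPM elsewhere) and Clec9a (0 to 0.17 TPM there, 0.32 to 4.02 TPM elsewhere). This list was chosen with these values known, so nothing is read from the count. The other 6 overlapped, and of these Sirpa, with 34.56 to 52.57 TPM there and 14.96 to 45.01 TPM elsewhere, and Cadm1, with 3.52 to 7.78 TPM there and 0.66 to 5.24 TPM elsewhere, reached higher there. Cd3e overlapped: it had 0.09 to 0.74 TPM there and 0.28 to 1.51 TPM elsewhere outside DM-CLL replicate 4. The T-cell list of 20 genes in the table summed to 124.5 to 239.65 TPM there and to 164 to 725 TPM elsewhere, of which Cd2 alone made up 39.6% to 86.1%. Without Cd2 the sums were 33.3 to 54.8 TPM there and 38.9 to 438 TPM elsewhere. Of the 20 genes, 3 lay wholly below the other libraries, beside the same 1.26% of all tested genes. The part of these cells in the low cytotoxic genes was not tested.

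Beside the high Nkg7, Gzma, Gzmb, Cst7 and Ccl5 of DM-CLL replicate 4 stood T-cell genes. Cd3d, Cd3e and Cd3g had 19.8, 11.9 and 55.1 TPM in that library, against 1.17, 0.39 and 1.46 TPM in DM-CLL replicate 5, and Cd8b1, the other CD8 chain, had 25.0 TPM against 0.53 TPM. Gzmk, a granzyme typical of T cells, had 3.09 TPM in replicate 4 and was listed at 0 in replicate 5. The receptors Ncr1 (2.32 TPM) and Klrd1 (7.50 TPM) were within the WT range in replicate 4, and Klrd1 was below every DM library. Of other genes of NK or T cells, Eomes (1.42 and 0.30 TPM in replicates 4 and 5), Il18rap (1.69 and 0.35) and Cd96 (3.99 and 0.85) were higher in replicate 4. Klra8 (0.96 and 0.65) and Klre1 (0.92 and 0.91) were closer. The neutrophil genes summed to 1353 and 120 TPM in the same order, the first within the DM range. In DM-CLL replicate 5 Nkg7, Gzma, Cst7 and Ccl5 were below every DM library, with Gzmb above. In the test of the 16 T-cell genes, 4 rose in DM-CLL against DM: Cd2 (1.20, adjusted p = 0.00336), Ctla4 (5.08, adjusted p = 1.91e-05), Icos (3.04, adjusted p = 5.48e-07) and Il7r (1.26, adjusted p = 0.0350), and 0 fell. These 4 of 16 stand beside 29.2% of all genes that rose. Cd2 did not follow the Cd3 genes. It had 90.04 to 297 TPM over all 17 libraries, and 274 to 287 TPM in the 2 DM-CLL libraries, where Cd3e differed widely. Its change is therefore not read as one of T-cell content. Against WT, Ctla4 (4.89, adjusted p = 2.95e-05) and Icos (2.97, adjusted p = 8.07e-07) rose, 2 of 16 beside 10.3% of all genes. Ctla4 had 153 and 210 TPM and Icos 9.59 and 11.7 TPM in DM-CLL, high in both libraries, whereas the Cd3 genes were high in replicate 4 alone. Icos had at most 0.76 TPM outside DM-CLL. It therefore passed the filter of 1 TPM in at least 2 libraries only through the group where it was high, and its calls carry that selection. Il7r was lost without DM-CLL replicate 4 (0.33, adjusted p = 0.608), DM replicate 1 (0.0841) or DM replicate 3 (0.0724), and in 6 of the other alternatives, among them median-ratio scaling (0.115) and the replicate block (0.109), with a range of 0.0017 to 0.608 over 24 alternatives. Cd2 did not pass after median-ratio scaling (0.0793) or with the replicate block (0.146; range 0.000294 to 0.146). Without DM-CLL replicate 5, 12 of 16 T-cell genes passed against DM and 12 against WT, beside 26.7% and 12.5% of all genes in the same fits. The part of T cells, or of other cells, in the cytotoxic genes of DM-CLL replicate 4 was not tested.

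In DM, where Cd7, Gzma and Nkg7 were highest among the non-leukaemic groups, the T-cell list without Cd2 summed to 38.9 to 55.0 TPM, against 47.0 to 52.0 TPM in WT. 9 of the 16 tested T-cell genes lay above 0 with a median of 0.028, and Cd3e had 0.28 to 1.51 TPM, against 0.41 to 1.0 TPM. Cd2, 1 of the 16, fell in DM against WT (by 1.04, adjusted p = 0.0400), beside 2.08% of all genes that fell, and this call was lost in 13 of 24 alternatives, 9 of them with 1 library left out (DM replicate 1, 3 or 6, WT replicate 1, 2 or 3, Sf3b1 MT replicate 1 or 3, or Atm MT replicate 5), with adjusted p from 0.00926 to 0.180. Cd2 was high in every library, so this fall is not read as one of T-cell content. Eomes, a T-box factor of NK cells and memory T cells, had 0.22, 0.34 and 1.5 TPM in DM and 0.25, 0.32 and 0.25 TPM in WT. Its high value was in DM replicate 6, in which Gzma and Cd7 were also highest of the DM libraries. All 9 B-cell genes lay below 0 in DM against WT, with a median of −0.64 and −0.25 over all genes. By limma 2 of the 9 fell, Blnk (adjusted p = 0.0353) and Cd22 (adjusted p = 0.0498), beside 2.08% of all genes. Neither passed after median-ratio scaling (0.254 and 0.163). All 9 also lay below 0 in DM against Atm MT and against Sf3b1 MT. Neutrophil genes were at 466.1 to 1536 TPM in DM and 62.8 to 1094 TPM in WT, and 0 of their 8 members passed in DM against WT, with 4 of 8 at an unadjusted p under 0.05. Flt3, a receptor of dendritic cell progenitors and some B-cell stages, had 11.7 to 18.4 TPM in DM and 8.07 to 12.2 TPM in WT. The part of these cells was not tested.

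**Figure D3:**
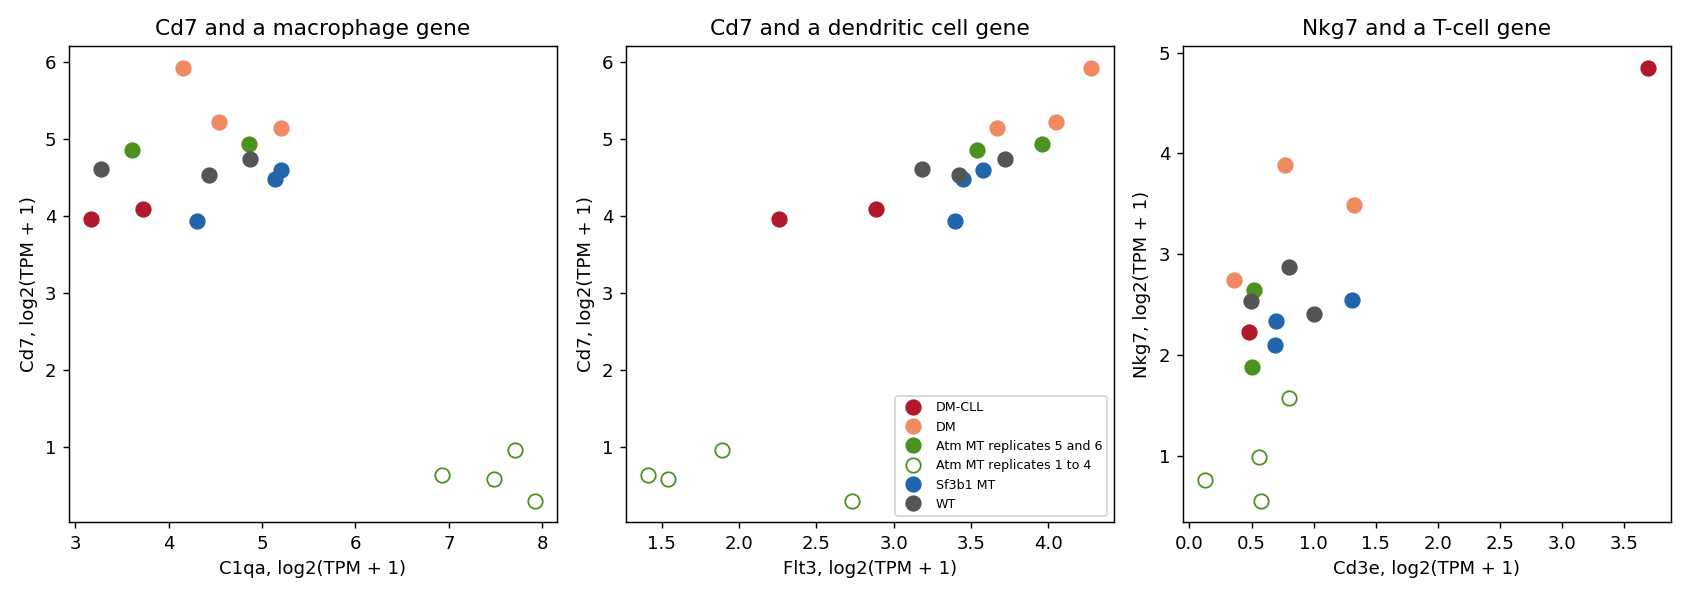
Level of Cd7 against C1qa (a macrophage gene) and against Flt3 (a dendritic cell gene), and of Nkg7 against Cd3e (a T-cell gene), all as log2(TPM + 1), with 1 point per library, coloured by group. Atm MT replicates 1 to 4 (open) lie at low Cd7 and high C1qa, and DM-CLL replicate 4 lies alone at high Nkg7 and high Cd3e.

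Among themselves the 10 genes were alike in some pairs and not in others. Across all 17 libraries Pearson's r of log2(TPM + 1) over the 45 pairs had a median of 0.74, from −0.12 (Gzmb with Prf1) to 0.98 (Klrd1 with Cd7). Without Atm MT replicates 1 to 4 the median was 0.34, from −0.33 (Cd7 with Gzmb) to 0.92 (Nkg7 with Gzma), over 13 libraries. The points share group and library preparation, and the 4 low libraries carry much of the first set of values. Over 13 libraries r ran from 0.67 to 0.92 among Nkg7, Gzma, Gzmb and Cst7, in each of which DM-CLL replicate 4 was the highest library, and was 0.74 for Ncr1 with Xcl1 and 0.73 for Klrd1 with Cd7. The highest r of Prf1 with any other of the 10 was 0.43.

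**Figure D4:**
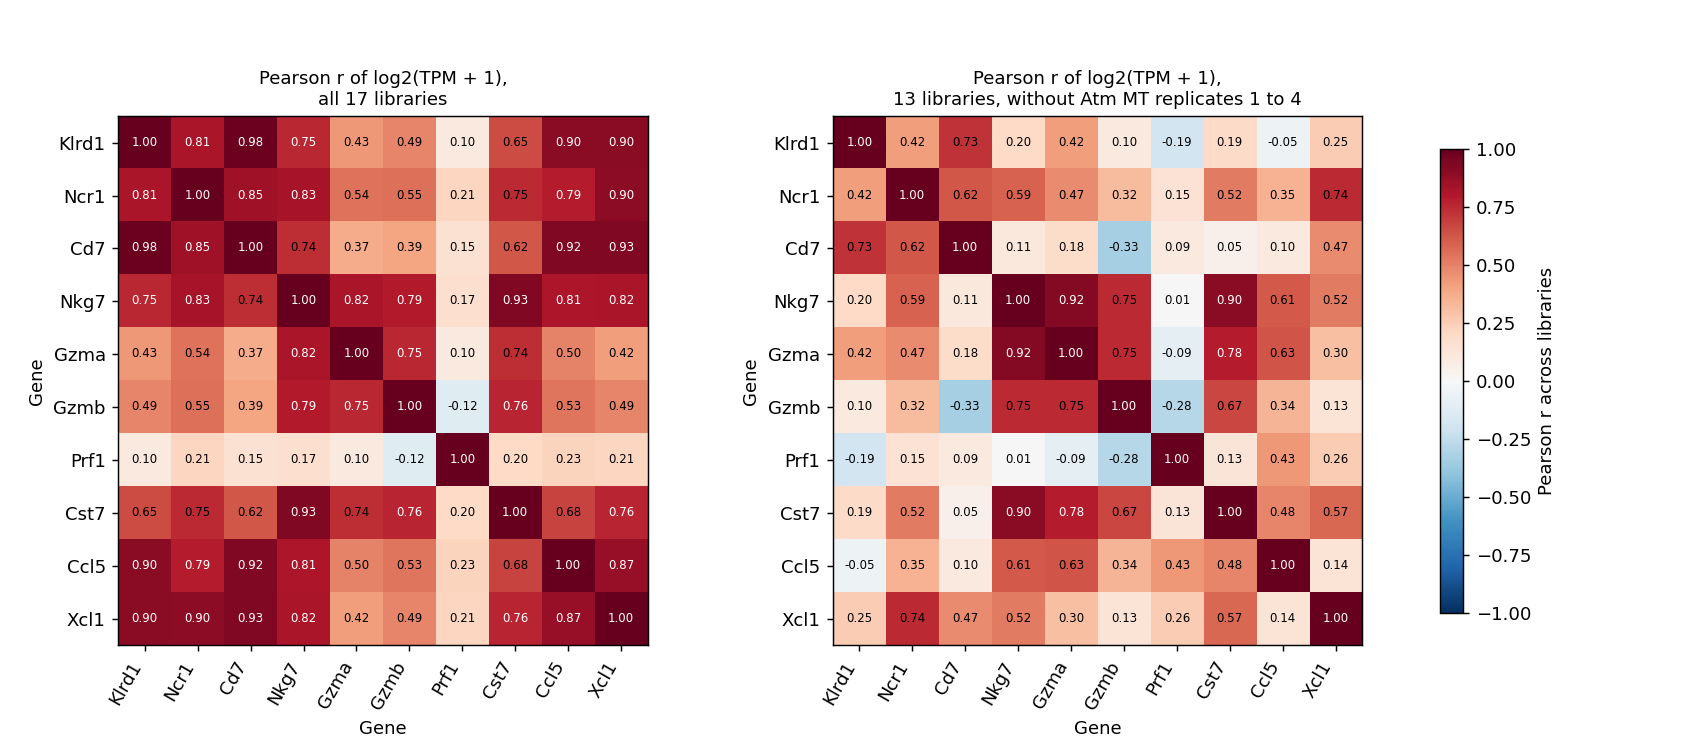
Pearson's r between each pair of the 10 genes across libraries, on log2(TPM + 1), for all 17 libraries (left) and for the 13 without Atm MT replicates 1 to 4 (right). The left panel is strongly positive outside Prf1, Gzma and Gzmb; on the right the highest are Gzma with Nkg7 (0.92) and Cst7 with Nkg7 (0.90).

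Outside the 10, the tested genes most like their mean profile (each gene centred and divided by its SD, Pearson's r over 17 libraries) were Ctsw (0.93), Cd160 (0.91), Prkch (0.90), Mxd1 (0.90), Cd8a (0.89), Dna2 (0.89), Rgs12 (0.87), Krt80 (0.85), Snx22 (0.85) and Adcy6 (0.85). Without Atm MT replicates 1 to 4 Ctsw was again first (0.85 over 13 libraries), followed by Iqgap2 (0.83) and Samd3 (0.83). Ctsw had 12.9 and 3.21 TPM in DM-CLL, 3.57, 6.93 and 8.46 TPM in DM, 0.92 to 4.81 TPM in Atm MT, 2.58 to 4.30 TPM in Sf3b1 MT and 3.71 to 3.99 TPM in WT. For single genes, Klrd1 was nearest to Ccnd1 (cyclin D1, 0.98), S100a4 (0.97) and Clec4a4 (a dendritic cell lectin, 0.97), and Cd7 to Ccnd1 (0.99), S100a4 (0.97) and Slamf8 (0.96). Ncr1 was nearest to the NK receptors Klra8 (0.95) and Klre1 (0.92) and to Cd160 (0.91). Nkg7 was nearest to Ctsw (0.96), Cd96 (0.92) and St3gal5 (0.89), Cst7 to Cd96 (0.88), Ctsw (0.87) and Skap1 (0.86), Gzmb to Il7r (0.96), Cd96 (0.92) and Ccnb1ip1 (0.88), and Gzma to Il18rap (0.89), Gda (0.88) and Eomes (0.85). Ccl5 was nearest to Cd8a (0.96), Fdps (0.92) and S100a4 (0.92), Xcl1 to Cd160 (0.97), Ifi205 (0.91) and Dna2 (0.90), and Prf1 to Spata2l (0.84), Vgll4 (0.82) and Tlr12 (0.82). Ccnd1 had 0.54 to 1.03 TPM in Atm MT replicates 1 to 4 and 6.85 to 25.1 TPM elsewhere, so the 4 low libraries weigh on its likeness to Klrd1 and Cd7. Il7r had 7.3 TPM and Cd96 3.99 TPM in DM-CLL replicate 4, against at most 1.94 and 1.36 TPM elsewhere. That library therefore weighs on their likeness to Gzmb.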

How the data were processed

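Levels are TPM values that the authors computed and deposited in 1 table of 18554 symbols and 17 libraries. Per the labels' protocols, RNA was extracted with PrepEase columns and made into poly(A) libraries with NEBNext Ultra. STAR and mm10 are named in the submitters' processing notes, while versions, the quantifier, the annotation and the use of strand are not given in the sources used here. Cd7 overlaps an antisense gene, Gm11775, and Xcl1 overlaps Gm20743, so reads of these pairs may not be told apart. TPM keeps no counts, so depth is unknown and no counting interval is given. The listed symbols hold 43.1% to 59.7% of the full total.

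From there, log2(TPM + 1) was fitted with limma 3.58.1 (trend) in R 4.3.3 over 9898 symbols at 1 TPM or more in at least 2 libraries, with Benjamini-Hochberg adjustment and a threshold of 0.05. Comparisons without DM-CLL used 15 libraries and those with it 17, and all groups in a fit share the spread. The fit was tested on simulated data. Other steps used Python 3.11.15 (scipy 1.17.1, numpy 2.4.6, matplotlib 3.10.9, pandas 2.3.3).

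The 10 genes and all lists were chosen with earlier results of these data known. Named genes are the 10, the 10 most correlated with their mean, 3 per gene, list genes that passed in any comparison, and abundant list genes. Sf3b1, Atm, Xist, other single markers and the dendritic cell list were named after values were seen, and that list has no test. Alternatives were a pseudocount of 0.1, no filter, median-ratio scaling over 7769 genes, a common total, only the groups compared, a replicate block, each library left out, and Atm MT replicates 1 to 4 left out together. Whether replicate numbers pair libraries was checked.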

Additional observations from a re-analysis of the deposited data

Results flagged for a closer look

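In 10 genes the Sf3b1 lesion went opposite ways with and without the Atm lesion: every DM library lay on one side of the Atm MT mean and every Sf3b1 MT library on the other side of the WT mean. The difference of both effects (DM minus Atm MT, less Sf3b1 MT minus WT, log2 scale) was 2.14 for Ncr1, 3.68 for Cd7, 1.59 for Cst7, 2.25 for Nkg7 and 3.88 for Xcl1. Of the wider cytotoxic list it was 1.75 for Ccl4, 2.10 for Cd160, 2.19 for Il2rb, 0.82 for Klrb1c and 1.74 for Nfil3. In Cst7, Xcl1, Ccl4, Cd160 and Nfil3 the Atm lesion likewise went opposite ways with and without the Sf3b1 lesion, with the same values of 1.59, 3.88, 1.75, 2.10 and 1.74. Without Atm MT replicates 1 to 4 the values were 1.12 for Ncr1, 0.82 for Cd7, 1.39 for Cst7, 1.39 for Nkg7, 2.26 for Xcl1, 1.08 for Ccl4, 1.21 for Cd160, 1.80 for Il2rb, 0.75 for Klrb1c and 1.99 for Nfil3. These differences were not tested. The 21 genes looked at were the 10 and the genes of the wider list that had passed in any comparison. Both sets were chosen from differences between these groups, which favours such values in advance. The share of all genes that meets the rule was not computed, so nothing is read from the count.

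Gzmb in Atm MT replicate 6 (0.88 TPM) stood apart from the other 5 libraries of its group, with a gap of 0.79 of the group's range. Only Atm MT has enough libraries for this rule. It was applied to 21 genes over the same 6 libraries, so the looks are not independent, and chance flags about 1 in 20.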

How the results depend on the processing

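The median log2 difference of the 10 genes kept its sign in every alternative except those named here. In DM against WT (0.37) it was 0.64 after median-ratio scaling and −0.10 with the replicate block, and 0.21 to 0.58 with 1 library left out. In DM against Sf3b1 MT (0.90) it was 0.34 with the replicate block and 0.68 to 1.0 with 1 left out. In Sf3b1 MT against WT (−0.28) it was −0.16 after median-ratio scaling and −0.35 to −0.17. In Atm MT against WT (−1.09) it was −2.11 with a pseudocount of 0.1, 0.072 without Atm MT replicates 1 to 4 and −1.37 to −0.96. In DM against Atm MT (1.69) it was 2.62, 0.49 and 1.38 to 1.98 in the same order. In DM-CLL it ran from −0.99 to 0.44 against DM (−0.39) and from −0.38 to 0.55 against WT (−0.03), which was −0.85 with the replicate block and changed sign without DM-CLL replicate 5 or WT replicate 3. With 1 DM-CLL library left out, the other is assumed to vary like the other groups.

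Of the 40 other cytotoxic genes, those called in Atm MT against WT (3) numbered 1 with only the groups compared, 10 with the replicate block, 1 without Atm MT replicates 1 to 4 and 0 to 7 with 1 library left out. In DM against Atm MT (6) they numbered 0 without the filter, 0 with only the groups compared, 1 on a common total, 0 without Atm MT replicates 1 to 4 and 0 to 11. In DM against WT (1) they numbered 3 with the block and 0 to 2, in DM-CLL against DM (3) 2 to 8, in DM-CLL against WT (3) 5 after median-ratio scaling and 3 to 5, and in Sf3b1 MT against WT (0) 1 without Atm MT replicates 1 to 4 and 0 to 1. In DM against Sf3b1 MT the count was 0 throughout. Over all genes, calls with 1 library left out ran from 7 to 864 in DM against Atm MT (599), 10 to 318 in DM against WT (221), 19 to 198 in Atm MT against WT (64), 0 to 18 in DM against Sf3b1 MT (12), 0 to 23 in Sf3b1 MT against WT (7), 1504 to 3345 in DM-CLL against DM (3084) and 696 to 1422 in DM-CLL against WT (1299). The cause was not tested.

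Replicate numbers showed no common pairing of libraries: over 18 same-number pairs the correlation of deviations ran from −0.36 to 0.36, and 5 exceeded 0.1. Pairs with different numbers were not set beside them, so this check cannot exclude pairing. DM-CLL shares its numbers 4 and 5 only with Atm MT, so block values for DM-CLL run through those Atm MT libraries. The replicate block gave 1131 calls in DM against WT and 303 in Atm MT against WT. Unknown depth limits what values under 1 TPM can show.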

Other observations

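Among innate lymphoid cell markers, Il17rb, a receptor for interleukin-25, rose in DM-CLL against DM (by 2.56 ± 0.40, limma adjusted p = 0.000307) and against WT (2.48 ± 0.40, adjusted p = 0.000605). It had 4.06 to 6.96 TPM in DM-CLL, 0 to 0.24 TPM in DM and 0.09 to 0.19 TPM in WT, and it passed without each library in turn. Of 9 B-cell genes, 2 rose and 3 fell in DM-CLL against DM, beside 29.2% and 1.97% of all genes. Ms4a1 (CD20) rose by 1.09 ± 0.24 (limma adjusted p = 0.00320) and Blnk by 0.86 ± 0.20 (limma adjusted p = 0.00517). Fcer2a (CD23) fell by 2.34 ± 0.45 (limma adjusted p = 0.00138), Cr2 (CD21) by 2.29 ± 0.55 (limma adjusted p = 0.00572) and Cd22 by 0.84 ± 0.29 (limma adjusted p = 0.0395). Blnk did not pass after median-ratio scaling (0.235) or with the replicate block (0.0901). Cd22 passed in 13 of the 17 fits with 1 library left out. Ms4a1 did not pass after median-ratio scaling (0.0722), and Cr2 did not pass without DM-CLL replicate 4 (0.0734).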
